A study of Mus musculus with 31 samples.

Results

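The places held by the cohesin loader NIPBL and by the cohesin subunit Rad21 were compared in activated mouse splenic B cells, using 3 peak lists of each protein. These 6 samples, picked by the spleen, stimulation and antibody in their titles, are part of a series of 31, of which 26 came with a peak list. The lists come from chromatin immunoprecipitation followed by sequencing (ChIP-seq), in which an antibody recovers a protein with the DNA it sits on, and a peak is a stretch where the recovered DNA piles up. All splenic samples were primary mature B cells of C57BL/6 background in which AID, needed to start class switch recombination, is missing, so it is absent from every group. The cells of both groups had been cultured with anti-CD40 and IL-4 for 48 h; the groups differ in the antibody, Bethyl's against NIPBL (n = 3) and Abcam's against Rad21 (n = 3). Resting splenic B cells without that stimulation (n = 3 for each protein) and CH12F3NCdel cells, named so in their titles and taken from CH12F3, a mouse B lymphoma line that here also lacks AID, given anti-CD40, IL-4 and TGF-β for 24 h (n = 2 for NIPBL, n = 4 for Rad21), serve as points of comparison. The labels used here do not explain NCdel, and the cell type field of the 4 Rad21 libraries names splenic B cells where their titles and source name the lymphoma line. CH12F3NCdel is 1 line, so its libraries are not separate animals. Nothing in the labels tells separate animals or cultures from repeat preparations, so p-values reflect the scatter among the deposited libraries, part of which may be technical.

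Cohesin is a ring-shaped protein complex that holds DNA and pulls it into loops, and Rad21 is the subunit that closes the ring. NIPBL, with its partner MAU2, loads cohesin onto DNA and drives its motor activity, while bound CTCF is known as a barrier at which moving cohesin stops. Loader and cohesin can therefore be mapped in the same cells and need not sit at the same places. The design text of the series asks what loop extrusion by cohesin does in class switching at IgH, the immunoglobulin heavy chain locus, where B cells exchange the constant region of the antibody.

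Peak lists hold no read counts, so the sequencing depth is unknown and the number and width of peaks are the precision there is. NIPBL lists held 890488 to 1332851 peaks on the main chromosomes, whereas the Rad21 lists held 149407, 1166190 and 1236384. Each list was therefore limited to its 20000 strongest peaks (highest -log10 p), called top peaks from here on. Peak names in the Rad21 lists name a control and those in the NIPBL lists name none, so the peak calling and the antibody cannot be told apart from the protein. Rad21 replicate 2 had 1 top peak on the Y chromosome where the other 5 libraries had 12 to 18, and Rad21 replicate 1 had the shortest list and the narrowest peaks. No pair of the 6 lists was a copy: at most 0.495% of top peaks in one list shared a start with a peak in another. Results that change without one of these libraries are given with that value.

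NIPBL peaks were spread over many widths, whereas Rad21 peaks crowded around middle widths. Among top peaks, the median width was 442, 532.5 and 552 bp in the NIPBL libraries and 309, 646.5 and 422 bp in the Rad21 libraries. These medians overlap, and their difference of 49.7 bp had a two-sided exact permutation p of 0.6. The ends of the distribution did separate. Peaks of 1 kb or wider made up 23.6, 29.1 and 30.1% of NIPBL top peaks and 1.26, 20.5 and 7.06% of Rad21 top peaks. Every NIPBL library lay above every Rad21 library, with an exact permutation p of 0.1, the smallest that 3 against 3 allows, and an adjusted p of 0.2 over 4 measures of the lists. Peaks of 51 bp, the shortest in the lists, made up 22.6, 19.3 and 19.1% of NIPBL and 4.62, 0.07 and 10.4% of Rad21 top peaks, again without overlap (exact permutation p = 0.1, adjusted p = 0.2). The order of the medians turned without Rad21 replicate 1, where NIPBL peaks were narrower by a difference of -25.4 bp. Together the top peaks covered 12.5, 14.2 and 14.6 Mb for NIPBL and 7.04, 15.1 and 9.75 Mb for Rad21, which overlap (exact permutation p = 0.4).

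**Figure D1:**
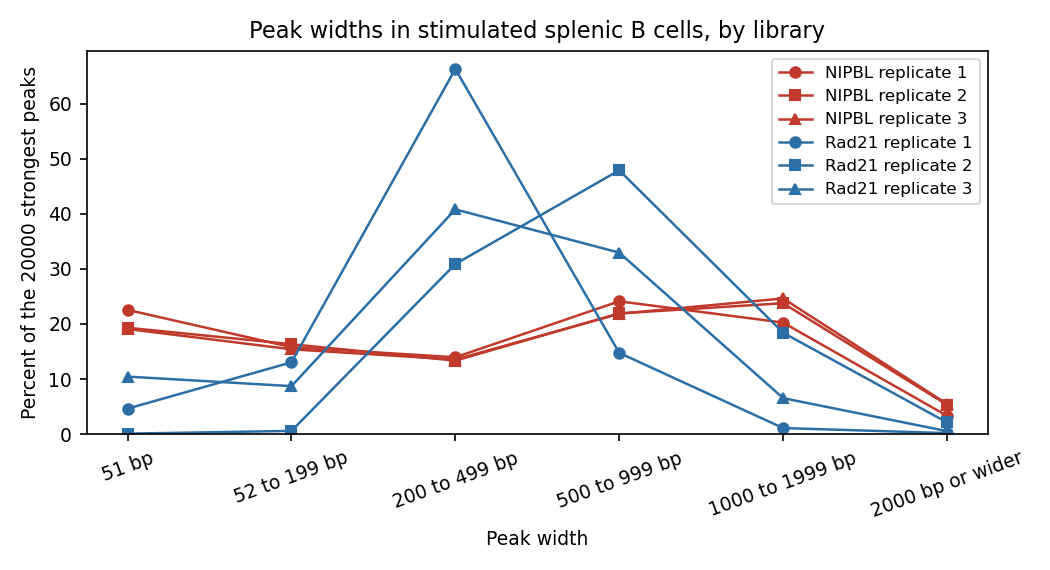
Percent of the 20000 strongest peaks (vertical axis) in each width class in bp (horizontal axis), 1 line per library, NIPBL in red and Rad21 in blue. The NIPBL lines lie together and are high at both ends, with 19.1 to 22.6% at 51 bp, whereas the Rad21 lines peak at 200 to 499 bp in replicates 1 and 3 and at 500 to 999 bp in replicate 2.

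Narrow and wide NIPBL peaks differed in how well they recurred. NIPBL peaks of 51 bp overlapped a top peak of another NIPBL replicate in 0.180 ± 0.0683% of cases (SD, n = 3 libraries, as below unless another n is given). Among NIPBL peaks of 500 to 999 bp 81.7 ± 2.88% did so, and among those of 2000 bp or wider 94.1 ± 1.48%. The shortest calls were thus almost all particular to their own list, and a Rad21 peak lay on 0.550 ± 0.0683% of them. Recurrence of NIPBL peaks thus rose with width, but it also followed their strength. It was 94.4 ± 0.688% at ranks 1001 to 5000 and 20.7 ± 1.26% at ranks 10001 to 20000, where the median width was 164 bp. Width and strength were not separated, and a wide peak is easier to hit by 1 base. Rad21 peaks of 200 to 499 bp already recurred in 75.5 ± 16.5% of cases. The cause of this wide spread over the 3 libraries was not tested.

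Loader and cohesin coincided at a minority of places. A Rad21 top peak overlapped, by 1 base or more, 8.36, 8.40 and 8.63% of the top peaks in the NIPBL libraries, on average over the 3 Rad21 lists. In the other direction NIPBL lay on 9.24, 8.96 and 7.25% of Rad21 top peaks. Both means, 8.46 ± 0.144% and 8.48 ± 1.08%, lie far below what replicates of one protein shared, 49.1 ± 0.177% for NIPBL and 75.4 ± 2.05% for Rad21. The 9 pairs of NIPBL and Rad21 lists ranged from 7.16 to 9.25%, while the lowest pair of NIPBL replicates shared 48.3%. As a reference for position alone, Rad21 top peaks covered 0.403 ± 0.156% of the genome and NIPBL top peaks 0.521 ± 0.0433%. These shares hold for a single base. A peak of many bases is hit more easily, so they understate the overlap that position alone would give. Overlap was densest among the strongest NIPBL peaks. Of the 200 strongest per library 39.8 ± 0.928% carried Rad21, against 11.9 ± 1.37% of those ranked 201 to 1000 and 6.04 ± 0.225% of those ranked 10001 to 20000. For Rad21 the same ranks gave 23.4 ± 3.79%, 10.8 ± 2.35% and 7.83 ± 1.41% with NIPBL. The level depends on how much of each list is read: with an equal covered length of 5 Mb the shares were 5.49 and 2.90%, and with all deposited peaks 10.8 and 18.4%. The top ranks of both proteins hold places with very high fold enrichment in every library, which are described with the bins. How far such places make up the overlap among the 200 strongest peaks was not tested.

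Most peaks of one protein had the other at a moderate distance. The median distance from a NIPBL top peak to the nearest Rad21 top peak was 20.2, 19.9 and 20.9 kb, and from a Rad21 to the nearest NIPBL top peak 20.8, 22.4 and 25.4 kb. To another replicate of the same protein it was 0.434, 0.633 and 0.434 kb for NIPBL and 0 kb for all 3 Rad21 libraries. Within 10 kb of a Rad21 peak lay 33.2 ± 0.335% of NIPBL peaks but 13.1 ± 0.278% of the genome, and within 50 kb 72.4 ± 0.672% against 40.7 ± 2.07%. From the side of Rad21, 31.5 ± 2.15% of its peaks lay within 10 kb of NIPBL, against 13.0 ± 0.116% of the genome. NIPBL and Rad21 peaks thus lay closer to each other than an average base of the genome lies to either. Both distances shrink as lists grow, from 33.2 and 39.98 kb with 10000 peaks to 2.38 and 0.491 kb with all deposited peaks, and at an equal covered length of 5 Mb they were 38.7 and 90.3 kb. The genome shares count every base up to the last peak of each chromosome, with bases that hold no peak in any list, and how far gaps in the mapped genome add to the difference was not tested. In CH12F3NCdel both distances were longer, 38.4 ± 1.18 kb from NIPBL (n = 2) and 29.8 ± 0.369 kb from Rad21 (n = 4), without overlap with the splenic libraries. In those cells 44.7 and 50.3% of NIPBL top peaks were 51 bp wide, and the part of that in the longer distance was not tested.

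**Figure D2:**
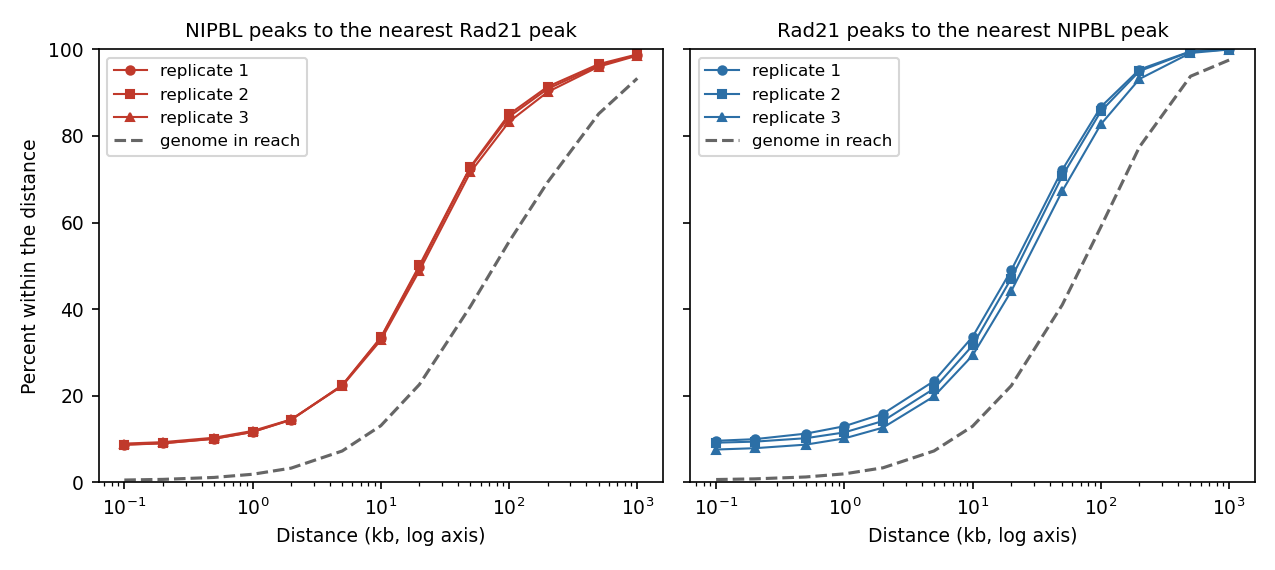
Cumulative percent of top peaks (vertical axis) with a top peak of the other protein within a given distance in kb (horizontal log axis), 1 line per library; the dashed line is the percent of the genome within the same reach. The NIPBL lines lie on one another and pass 33.2% at 10 kb, above the 13.1% of the genome; the Rad21 lines pass 31.5%.

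The excess around a peak was narrow, with a shallow shoulder. At the centres of NIPBL sites, Rad21 top peaks covered 7.32 ± 1.71% of positions, falling to 2.33 ± 0.965% at 1 kb and 1.44 ± 0.517% at 5 kb. At 50 kb the value was still 1.22 ± 0.495%, set against 0.403% of the genome. At the centres of Rad21 sites NIPBL covered 6.45 ± 0.319%, then 2.24 ± 0.203% at 1 kb and 1.45 ± 0.148% at 50 kb, against 0.521% of the genome.

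Sites were then defined as merged top peaks that recur in 2 or more of the 3 libraries of a protein, which drops the calls made in 1 list. There were 11411 NIPBL sites and 17632 Rad21 sites. Of the NIPBL sites, 1529 overlapped a Rad21 site (13.4%, 95% Wilson interval 12.8 to 14.0%) and 9882 did not. Of the Rad21 sites, 1520 overlapped a NIPBL site (8.62%, 8.22 to 9.04%) and 16112 did not. These intervals cover counting error over sites only. NIPBL sites without Rad21 had a median width of 1212 bp and lay a median of 18.9 kb from the nearest Rad21 site, with 6.20% of them beyond 100 kb. Rad21 sites without NIPBL were narrower, 756 bp, and more often remote: their median distance to a NIPBL site was 39.5 kb, and 26.4% lay beyond 100 kb. With 10000 peaks per list 6.56% of NIPBL and 5.48% of Rad21 sites were shared, and with 40000 peaks 21.2 and 12.6%. Stretches with no loader site within 100 kb of a cohesin site were thus more frequent than the reverse, in lists with fewer NIPBL than Rad21 sites.

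Coincidence rose with the width of the Rad21 site. NIPBL lay on 5.06% of Rad21 sites under 500 bp (163 of 3220), on 13.0% of those of 1000 to 1999 bp (590 of 4543), on 39.3% of those of 2000 to 3999 bp (192 of 488) and on 70.5% of those of 4000 bp or wider (31 of 44). A wide site has more bases on which to be hit, so the same was counted in the central 500 bp of each site, where the shares were 5.06, 11.8, 31.6 and 43.2%. NIPBL sites showed no such order. Rad21 lay on 23.3% of NIPBL sites under 500 bp, on 9.87% of those of 1000 to 1999 bp, where most NIPBL sites fall, and on 31.0% of those of 4000 bp or wider (44 of 142). In the central 500 bp these shares were 23.5, 8.14 and 20.4%, and for sites of 2000 to 3999 bp 9.14% in place of 15.8%. The widest sites lie partly in stretches described with the bins that were high in all 6 libraries.

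**Figure D3:**
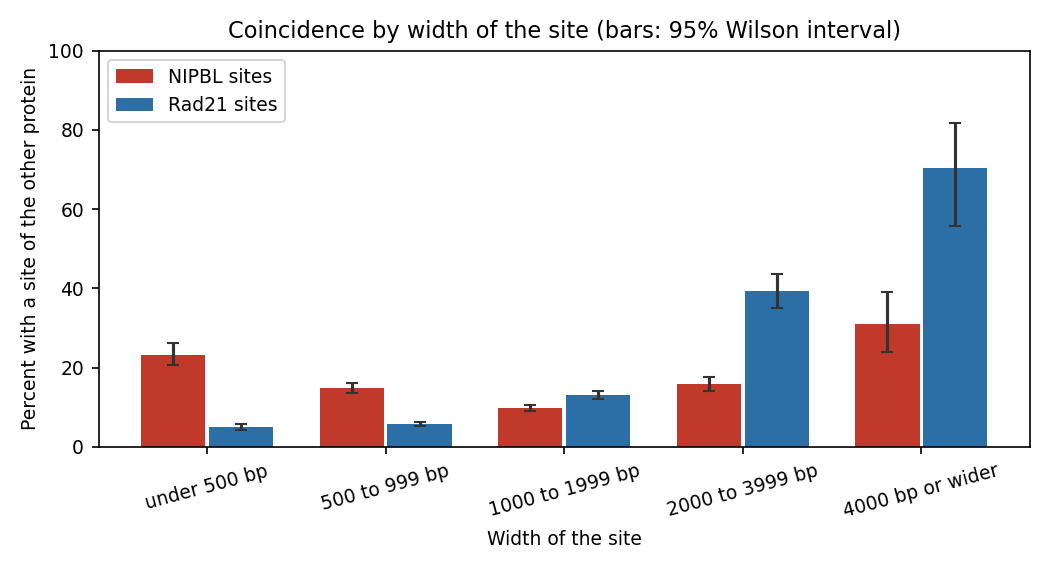
Percent of sites that overlap a site of the other protein (vertical axis, from 0) by the width of the site in bp (horizontal axis), NIPBL sites in red and Rad21 sites in blue; error bars are 95% Wilson intervals over sites. Rad21 bars climb from 5.06 to 70.5%, while NIPBL bars are lowest, at 9.87%, in the 1000 to 1999 bp class.

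Sites held by 1 protein in stimulated spleen were looked up in libraries that had no part in defining them. Rad21 sites without NIPBL carried a Rad21 top peak in 77.8 ± 4.83% of cases in resting spleen and in 82.6 ± 0.985% in CH12F3NCdel (n = 4), but a NIPBL top peak in 2.94 ± 1.33% and 2.28 ± 0.224% (n = 2). NIPBL sites without Rad21 carried NIPBL in 76.9 ± 7.79% of cases in resting spleen and in 34.6 ± 9.22% in CH12F3NCdel (n = 2). Rad21 lay on 9.85 ± 4.19% of them in resting spleen and on 2.47 ± 0.406% in CH12F3NCdel (n = 4). For both classes the protein that defined the site was the one found again, and the libraries of the 2 proteins did not overlap. Shared NIPBL sites carried Rad21 in 85.8 ± 0.957% of cases in resting spleen and in 72.04 ± 5.99% in CH12F3NCdel, with NIPBL at 74.2 ± 8.52% and 39.0 ± 5.92% (n = 2). The cohesin side of these places was the more widely held across cell types, and NIPBL replicates of CH12F3NCdel themselves shared only 14.6 ± 0.0778% of top peaks (n = 2).

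**Figure D4:**
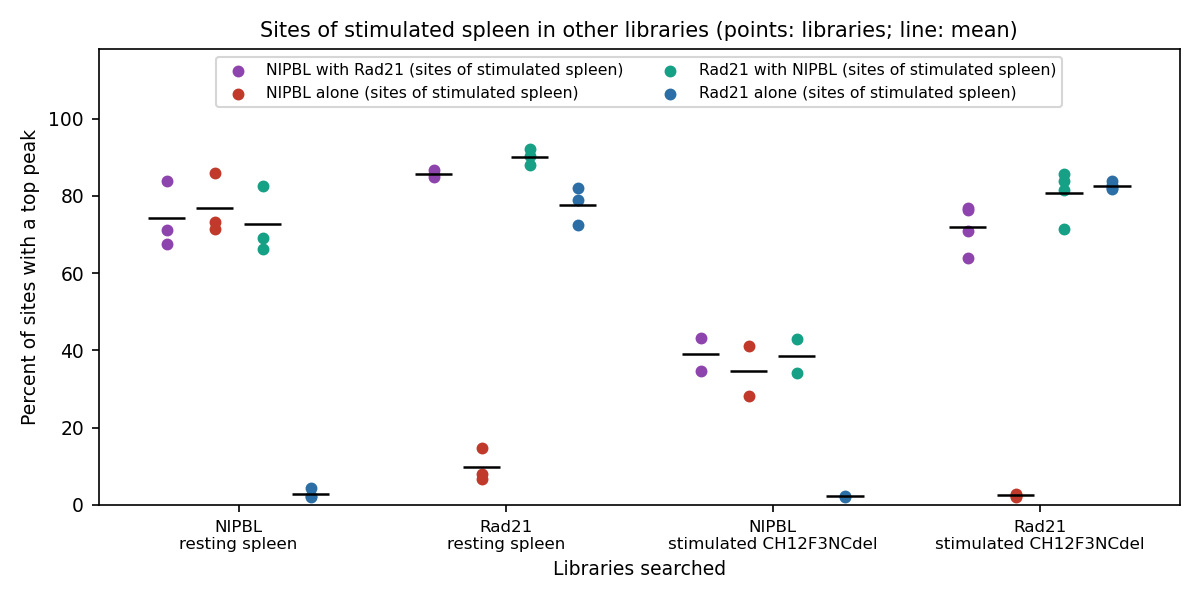
Percent of sites of stimulated spleen (vertical axis) that hold a top peak in each library of resting spleen and stimulated CH12F3NCdel (horizontal axis), by class of site; points are libraries and lines are means. Sites of Rad21 alone stay under 5% in every NIPBL library, and sites of NIPBL alone lie between 1.98 and 14.6% in the Rad21 libraries.

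Part of the bases in sites called alone lay under weaker peaks of the other protein. Of the bases in NIPBL sites without Rad21, 11.7, 48.6 and 27.6% lay under some deposited Rad21 peak of replicates 1, 2 and 3, where all Rad21 peaks covered 0.839, 6.54 and 5.96% of the genome. Of the bases in Rad21 sites without NIPBL, 16.4, 22.6 and 23.4% lay under a deposited NIPBL peak, against 4.91, 7.42 and 8.22% of the genome. In each library the site bases were covered more than the genome, by a ratio of 4.63 to 14.0 for Rad21 and 2.84 to 3.33 for NIPBL. "Alone" therefore means that the other protein is not among the strongest peaks, not that it has no deposited peak. Most bases of these sites lay under none in each library, and whether the weaker peaks are signal or background was not tested.

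More top peaks coincided in resting cells, although distances did not all follow. Rad21 lay on 14.0 ± 2.57% of resting NIPBL top peaks and NIPBL on 13.9 ± 2.86% of resting Rad21 top peaks. The median distance from a resting NIPBL peak to resting Rad21 was 15.3, 29.6 and 26.0 kb, longer in replicates 2 and 3 than in any stimulated library. At the level of sites, 2504 of 10616 resting NIPBL sites (23.6%) overlapped a Rad21 site. The stimulated NIPBL libraries themselves overlapped resting Rad21 more than stimulated Rad21, at 12.4 ± 0.0788% against 8.46 ± 0.144%, whereas resting NIPBL met stimulated Rad21 at 8.01 ± 1.77%. Following the stimulated NIPBL sites one by one, 1368 overlapped Rad21 sites of both states, 161 of stimulated cells only, 852 of resting cells only and 9030 of neither. A NIPBL site of resting cells lay on 91.2% of the 852, on 76.7% of the 1368, on 54.0% of the 161 and on 75.9% of the 9030. This order depends on the peaks taken: the share of NIPBL peaks with Rad21 in stimulated minus resting cells was -5.57 percentage points with top peaks, but 2.83 with all deposited peaks and 1.17 with peaks of -log10 q of 5 or more.

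To name places, the mm9 genome was divided into 10 kb bins, each valued by the percent of its bases under top peaks. Of 28018 bins covered in 2 or more of the 6 libraries, NIPBL was higher in 7524 and Rad21 in 9654 (limma, Benjamini-Hochberg adjusted p under 0.05), which is 26.9% and 34.5% of the bins tested. In 7897 bins every NIPBL library lay above every Rad21 library (28.2%), and in 10882 the reverse held (38.8%). Where NIPBL was higher the median difference was 10.4 percentage points, and in 5921 of those bins Rad21 was at 0 in all 3 libraries. Where Rad21 was higher the median difference was 5.43 points, with NIPBL at 0 in all 3 libraries in 8106 bins. A bin with one protein at 0 in all libraries could enter only through the other, so these counts of 0 follow in part from the filter and the list length. Of 12724 bins covered in 2 or more NIPBL libraries and 17308 covered in 2 or more Rad21 libraries, 3071 were in both sets, 24.1% of the NIPBL and 17.7% of the Rad21 bins. The split between directions moves with the number of peaks: with all deposited peaks 13240 bins were higher for NIPBL and 1165 for Rad21, and with peaks of -log10 q of 5 or more 6996 and 796. Without NIPBL replicate 1, 2 or 3, the Rad21-higher bins numbered 6259, 6241 and 6267.

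The bins with the largest excess of NIPBL were broadly covered by it in all 3 libraries, and 8 of the 15 had no Rad21 top peak. Bins without Rad21 entered the test only through NIPBL, and all 15 were picked for the size of their difference. A protein at 0 in all its libraries also has no spread, which lowers the SE. The SE and p-values of these bins are therefore descriptive. On chromosome 11 at 3030001-3040000, NIPBL covered 97.8, 100 and 97.8% of the bin and Rad21 none in any library (difference 98.5 points, SE 2.83, limma adjusted p = 0.00029). The next, on chromosome 7 at 52090001-52100000, had 88.3, 93.7 and 99.3% for NIPBL and 0 for all 3 Rad21 libraries. It belongs to a single NIPBL site of 12018 bp, with fold enrichments of 16.4, 13.6 and 16.2. The other 7 held some Rad21 top peak, and in all 7 Rad21 replicate 1 was among the libraries that did, with 32.2% on chromosome 8 at 56200001-56210000. On chromosome 8 at 19970001-19980000 the excess of 83.4 points with top peaks became -10.4 with 40000 peaks, so its direction changed with the length of the lists. On chromosome 11 at 3040001-3050000 Rad21 replicate 1 stood at 81.8% and the other Rad21 libraries at 0, and the call (difference 66.9, limma adjusted p = 0.0466) was lost in 11 of 18 alternatives. By contrast 8 of the 15 bins kept their call in every alternative in which they were tested. Filters drop a bin from some alternatives, and each of the 15 was tested in 17 to 19. Among the 8 are chromosome 7 at 52090001, chromosome 1 at 173000001, chromosome 10 at 79610001, chromosome 5 at 122280001 and chromosome 17 at 34160001. At chromosome 1, 173000001-173010000, NIPBL covered 71.7, 69.8 and 75.6% and Rad21 none. Neighbouring bins of chromosome 6 at 47610001 and 47620001 were also among the 8; the first held 69.5, 72.2 and 84.7% NIPBL against 3, 0 and 0% Rad21.

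Rad21's largest excesses were narrower and less stable. These 15 bins were likewise picked for the size of their difference, and those without NIPBL entered the test only through Rad21. On chromosome 5 at 97340001-97350000 Rad21 covered 20.5, 36.7 and 42.0% and NIPBL 1.13, 0 and 0% (difference -32.7 points, SE 5.60, limma adjusted p = 0.00455). Of the 15 bins with the largest Rad21 excess, only this 1 kept its call in every alternative in which it was tested. It was tested in 17 alternatives, where others of the 15 were tested in up to 19. The largest difference, -55.8 points on chromosome 1 at 87500001-87510000, came from 40.6, 87.8 and 72.7% Rad21 against 14.6, 18.5 and 0.51% NIPBL, and turned to 7.48 points with 10000 peaks per list. The most even was chromosome 1 at 24620001-24630000, with 29.95, 29.97 and 30.02% Rad21 and no NIPBL in any library. Of the 15, 7 held a NIPBL top peak in some library.

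Some bins were high in all 6 libraries, and part of these hold peaks of very high fold enrichment. The 15 bins with the highest lowest value comprise 4 neighbouring bins of chromosome 9 from 3000001 to 3040000, covered 83.1% or more in every library, and 4 of chromosome 11 from 3060001 to 3100000, covered 69.1% or more. Chromosome 2 at 98500001-98510000 and chromosome 17 at 39980001-39990000 also belong to them. The highest fold enrichment of a library's list, 13294 to 43631 over the 6 libraries, is far above the median of 6.07 to 12.1 among top peaks. Whether those highest peaks lie in the 15 bins was not examined. Of these 15 bins, 6 hold a peak with a fold over 50. Such places made up 69 of the 1529 shared NIPBL sites (4.51%), against 56 of 9882 NIPBL sites without Rad21 (0.567%) and 59 of 16112 Rad21 sites without NIPBL (0.366%). Whether mapping of repeats plays a part there was not tested. Leaving all of them out moved the share of NIPBL sites with Rad21 from 13.4 to 12.9%. Other bins of this set had ordinary folds, among them X at 166430001 and 166440001, 13 at 51940001 and, in the IgH region, 12 at 114460001.

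NIPBL sites also crowded into runs more than Rad21 sites. Counting neighbours less than 10 kb apart, there were 57 runs of 5 or more NIPBL sites (370 sites) and 7 of Rad21 sites (45 sites), although 29.7% of the sites of each protein had another of their kind within 10 kb. The longest NIPBL run had 14 sites over 39.9 kb (chromosome 6, 47688860-47728765), 2 of them with Rad21, and NIPBL covered 65.0% of it. On chromosome 13, 23622603-23677904, 13 NIPBL sites ran over 55.3 kb with no Rad21 site. The longest Rad21 run had 12 sites (X, 166415295-166446859), in the stretch where both proteins were high in all 6 libraries.

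The chromosomes were not shared out alike. The percent of top peaks was higher for NIPBL without overlap on 5 of 21 chromosomes (23.8%; 4, 5, 7, 8 and 17) and for Rad21 on 4 (19.0%; 1, 6, 9 and X). On chromosome 8 NIPBL had 5.58 ± 0.0606% and Rad21 4.66 ± 0.184%, and on X NIPBL had 1.87 ± 0.123% and Rad21 2.60 ± 0.265%. Each of these 9 had an exact permutation p of 0.1, the smallest possible, and an adjusted p of 0.233. Among autosomes, chromosome 17 had the highest share of NIPBL sites with Rad21, 17.4% (109 of 625), and chromosome 3 the lowest, 10.5% (53 of 507).

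At IgH the broadest NIPBL sites did not overlap a Rad21 site, and which protein held more bins depended on the number of peaks read. The region examined comprises 40 neighbouring bins of chromosome 12 (mm9), of which the second starts at 114310001. In the RefSeq table of GRCm38.p6 the constant genes run by ascending coordinate from Igha through Ighe, Ighg2c, Ighg2b, Ighg1 and Ighg3 to Ighd and Ighm; bins are given in mm9 and were not assigned to these genes, because no mm9 annotation was used here. How many of the 40 bins lie in flanks outside the locus was therefore not determined, and "IgH bins" below means all bins of this region. Of 40 bins 24 were covered in some library. In 9 every NIPBL library lay above every Rad21 library and in 3 the reverse held (28.2 and 38.8% of all bins tested), each with an exact permutation p of 0.1 and an adjusted p of 0.2. In the limma fit over the genome 18 of these bins were tested, of which 8 were higher for NIPBL and 3 for Rad21, where over all bins 26.9 and 34.5% were called. The Rad21-higher count falls to 1 with 40000 peaks per list and to 0 with all deposited peaks or a -log10 q of 5 or more, while with 10000 peaks the counts are equal, 4 for each protein, and so they are at an equal covered length of 5 Mb, 2 for each.

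At the high-coordinate end only NIPBL was strong. The bin 114660001-114670000 had 47.1, 45.0 and 29.9% NIPBL and 0 Rad21 in all 3 libraries (difference 40.6 points, SE 4.82, limma adjusted p = 0.00124). Its main site, 114658833-114664201, is 5369 bp wide and 59158 bp from the nearest Rad21 site. The bin 114570001-114580000 had 41.7, 49.8 and 24.5% NIPBL and again no Rad21 (difference 38.6 points, SE 6.44, limma adjusted p = 0.00413). It holds a site of 5573 bp at 114572412-114577984, 76084 bp from the nearest Rad21 site. Single Rad21 top peaks that did not recur lie nearer, at 114566022-114566085 in replicate 1 and 114563503-114563818 in replicate 3. NIPBL fold enrichments at the site of 5573 bp were 9.13, 8.39 and 11.3. Both bins entered the test only through NIPBL, so their SE and p-values are descriptive. Weaker Rad21 peaks do lie in both bins: all deposited Rad21 peaks covered 37.0 ± 20.5% of the first and 36.8 ± 11.8% of the second, against 49.3 ± 4.92% and 64.4 ± 5.43% for NIPBL.

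In the middle of the region the proteins met. The bin 114460001-114470000 was covered in all 6 libraries, 32.4, 29.0 and 32.3% by NIPBL and 20.6, 33.7 and 21.8% by Rad21, which overlap (limma adjusted p = 0.246). It holds a shared NIPBL site at 114460183-114461993 under a Rad21 site of 4036 bp, whose peaks had Rad21 fold enrichments up to 27.1. The neighbouring bin 114450001-114460000 was the third largest Rad21 excess of the genome, with 21.1, 47.2 and 30.5% Rad21 and 0, 3.54 and 0% NIPBL (difference -31.8 points, SE 6.60, limma adjusted p = 0.00886). Reading all deposited peaks, the bin differed by -2.63 points and was no longer called. Towards the low-coordinate end, shared sites lay at 114392957-114396317 and 114311422-114313945. Rad21 alone held the narrow sites at 114340469-114341181, 114384085-114384956 and 114425590-114426205, the first 3946 bp and the second 797 bp from a NIPBL site. The region thus held 4 NIPBL sites with Rad21, 14 NIPBL sites without, and 5 Rad21 sites without NIPBL.

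**Figure D5:**
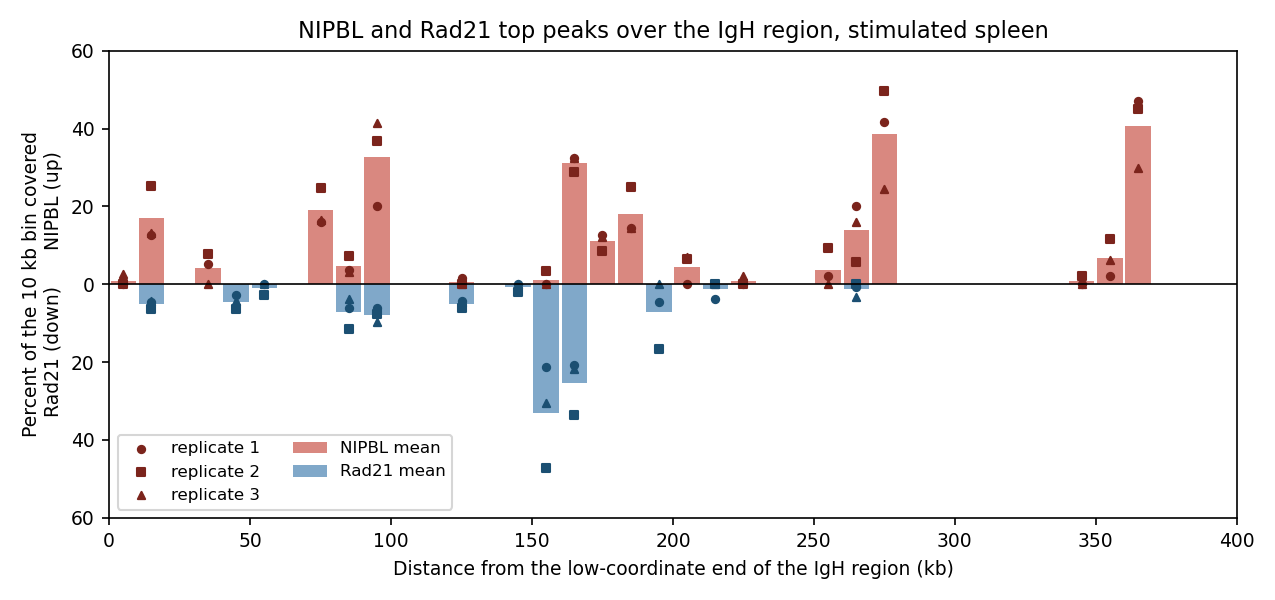
Percent of each 10 kb bin under top peaks (vertical axis; NIPBL upward, Rad21 downward, both from 0) along the IgH region (horizontal axis, kb from its low-coordinate end), bars for the mean of 3 libraries and symbols for replicates. No Rad21 bar lies beyond 270 kb, and they are tallest at 150 to 170 kb, whereas NIPBL bars reach 38.6% at 270 to 280 kb and 40.6% at 360 to 370 kb.

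The difference between the proteins was then compared between stimulated and resting cells with an interaction term over all 12 splenic libraries. Of 36675 bins, the NIPBL minus Rad21 difference was larger after stimulation in 976 (2.66%) and smaller in 644 (1.76%; limma, adjusted p under 0.05). In the 976 bins the median change of Rad21 was -4.85 points and that of NIPBL 0.17, and Rad21 moved more than NIPBL in 596 of them; in the 644 Rad21 moved more in 494. The counts rest on the lists: with 40000 peaks they were 504 and 16, and with all deposited peaks 0 and 0. In that last fit 255909 bins were tested, and 3058 and 7967 had an unadjusted limma p under 0.05. Together these are no more than such a limit passes without any difference. Without Rad21 replicate 1 or 3 the count of bins with a smaller difference was 1441 and 1035.

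In the IgH region, 2 of 21 bins tested had a larger and 1 a smaller difference after stimulation, where over all bins 2.66 and 1.76% were called. In each of the 3 it was NIPBL that moved. Each had top peaks only in the NIPBL libraries of 1 state, so it entered the fit only through the group where it was high. The p-values of these 3 bins do not account for that and are no independent support. The bin at 114570001 held 41.7, 49.8 and 24.5% NIPBL in stimulated cells and 0 in all 3 resting NIPBL libraries, with Rad21 at 0 in all 6 (interaction 38.6 points, SE 6.72, limma adjusted p = 0.00836). The bin at 114470001 held 12.7, 8.64 and 12.1% NIPBL after stimulation and 0 at rest, also without Rad21 (interaction 11.1 points, limma adjusted p = 0.00168). The reverse was seen at 114400001, with 15.2, 9.30 and 14.5% NIPBL at rest and 0 after stimulation (interaction -13.0 points, limma adjusted p = 0.00318). The broad NIPBL bin at 114660001 was held in both states, at 54.4, 29.4 and 42.5% in resting cells, and was not called (interaction 3.11 points, limma adjusted p = 0.935). The call at 114570001 held with 10000 and 40000 peaks per list, at 38.4 and 41.4 points, and without any 1 stimulated library; with all deposited peaks it was lost (9.47 points, limma adjusted p = 0.962). The other calls turned or were lost with 40000 peaks, at 3.04 points for 114470001 and 3.86 for 114400001.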

How the data were processed

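NIPBL and Rad21 ChIP-seq lists of stimulated spleen were compared, with resting spleen and stimulated CH12F3NCdel beside them. Bowtie2, MACS2 and the mm9 build are named, per the submitters' processing notes, for alignment and peak calling; tool versions were not given there. For every peak the authors deposited a fold enrichment (a ratio), p-values and q-values as -log10, and a score (10 times -log10 q). Ranking and filtering by them stayed inside a single list. Each sample has a list of its own. The control of the Rad21 lists is known only from the deposited peak names; input samples were not analysed here.

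On 21 main chromosomes, 20000 peaks of highest -log10 p were kept per list. Overlap means 1 base or more; distances are edge to edge, as medians per library. Bins of 10 kb covered in 2 or more libraries were compared by limma (3.58.1, run in R 4.3.3, with a mean-variance trend, Benjamini-Hochberg adjusted p under 0.05), which assumes a like spread for values that are often 0. The fit was also run on simulated data, in which both proteins shared 1 mean per bin except in bins raised on purpose. Those data lack bins with 1 protein at 0 in all its libraries, so they cannot check such calls. Other tests are two-sided exact permutation tests over libraries. Other work used scipy 1.17.1, pandas 2.3.3, numpy 2.4.6 and matplotlib 3.10.9 in Python 3.11.15. Alternatives covered list length, bin size, filters, model, overlap rule and each left-out library. Named bins are, per direction, 15 called bins without overlap and of largest difference, the 15 bins with the highest lowest value, the 5 largest interaction bins per direction and all IgH bins; runs, widest sites and places of a fold over 50 were chosen after their values were seen. Samples, bins and tests were chosen with earlier results of these data known. Gene lists, promoters and sequences need an mm9 genome and were not analysed here.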

Additional observations from a re-analysis of the deposited data

Results flagged for a closer look

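The difference between NIPBL and Rad21 was not the same in stimulated and resting spleen at 976 bins where it was larger after stimulation and 644 where it was smaller (limma interaction, adjusted p under 0.05, 2.66% and 1.76% of bins tested). Of the 10 bins outside IgH named here, 0 kept the call in every alternative run. In 8 of the 10, all but chromosome 6 at 48650001 and chromosome 14 at 15180001, the direction turned in at least 1. Among the 5 bins with the largest increase, chromosome 10 at 96080001 gained 76.7 points (adjusted p = 0.000832): Rad21 covered 93.5, 96 and 88.9% of it in resting and 7.12, 0 and 24.6% in stimulated cells, while NIPBL stayed between 8.85 and 23.8% in all 6 of its libraries. The change lay in Rad21, and with 10000 peaks per list the value was -2.22. At chromosome 7, 52090001, the gain of 67.8 points (adjusted p = 0.000176) was NIPBL's, from 30.7, 26.1 and 21.0% to 88.3, 93.7 and 99.3%, with Rad21 at 0 throughout. Chromosome 1 at 90150001 gained 56.7 points, from 15.4, 0 and 0% to 60.8, 64 and 60.6% NIPBL, again without Rad21, but -17.4 with all deposited peaks. Chromosome 11 at 87560001 gained 51.4 points and chromosome 6 at 48650001 gained 50.1; in both Rad21 was high at rest (61.8 ± 13.5% and 54.2 ± 23.5%) and low after stimulation (1.37 ± 2.37% and 4.18 ± 3.69%). The last of these was not called in any of its 8 alternatives, including each left-out library.

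Among the decreases, chromosome 11 at 3070001 changed by -49.7 points, since Rad21 rose from 0, 0 and 8.96% to 80.04, 85.2 and 94.01% beside NIPBL, which went from 65.4 ± 16.9% to 99.2 ± 1.38%. This bin belongs to the stretch that was high in all stimulated libraries, and its value turned to 81.1 with 10000 peaks. Chromosome 14 at 15180001 changed by -38.2 points, from 47.0, 47.0 and 46.5% NIPBL at rest to 8.70, 7.90 and 9.39%, and no Rad21 in either state. At chromosome 15, 101080001, the change of -32.1 points was the net of 2 losses. NIPBL there went from 47.6 ± 8.03% to 2.36 ± 4.09%, and Rad21 from 13.2 ± 12.1% to 0 in all 3 libraries. Losses of NIPBL, without Rad21 in either state, gave the changes of -29.1 at chromosome 2, 30540001, and of -26.9 at X, 70960001. At the X bin NIPBL covered 33.7, 22.6 and 24.3% at rest and none after stimulation. This bin entered the fit only through resting NIPBL.

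In the IgH region the called changes were 38.6 points at 114570001, 11.1 at 114470001 and -13.0 at 114400001, each of NIPBL in bins without Rad21 top peaks. Each of these bins entered the fit only through the group where it was high. Groups of 4 libraries (CH12F3NCdel Rad21) were also searched for a library far from the rest: none was found in 11 measures.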

How the results depend on the processing

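Limits: the lists hold no counts, so how many peaks are read decides most levels, and the difference between the proteins cannot be told apart from that between their antibodies and peak calling. Bins have no gene names here, and the alternative on the promoter share of peaks was not run because no mm9 annotation was used. Where a value below moved, the cause was not tested, beyond the number of peaks or libraries that the alternative itself changes.

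With 10000 peaks per list, 5.67% of NIPBL peaks had Rad21 and 5.68% the reverse, distances were 33.2 and 39.98 kb, there were 9633 Rad21 sites, 6.56 and 5.48% of NIPBL and Rad21 sites were shared, the stimulated minus resting share was -3.21 points, 5726 bins were higher for Rad21, and 4 IgH bins for NIPBL. With 40000 peaks the same values were 9.61 and 9.69%, 12.9 and 13.6 kb, 21.2 and 12.6% of sites and -6.54 points; the width difference turned to -140.3 bp, the interaction gave 504 and 16 bins, and 1 IgH bin was higher for Rad21. With all deposited peaks they were 10.8 and 18.4%, 2.38 and 0.491 kb, 535598 NIPBL and 240011 Rad21 sites with 28.7% of the latter shared, 2.83 points, 13240 and 1165 bins, 0 and 0 interaction bins, and 18 and 0 IgH bins; the difference in 51 bp peaks turned to -2.66 points. At an equal covered length of 5 Mb they were 5.49 and 2.90%, 38.7 and 90.3 kb, 4313 and 8117 sites with 4.98 and 2.69% shared, -2.43 points, 2815 and 4339 bins, 568 bins with a larger difference after stimulation and 2 IgH bins higher for NIPBL; 51 bp peaks differed by -0.195 points. With a -log10 q of 5 or more they were 6.09 and 14.5%, 25.5 and 7.53 kb, 25487 NIPBL sites, 14.4 and 16.9% shared, 1.17 points, 796 bins higher for Rad21 and 0 such IgH bins, and the width difference was -170.0 bp.

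Overlap over the larger part of a peak gave 4.85 and 5.76%, and edges within 1 kb gave 11.7 and 11.6% of peaks and 16.3 and 10.4% of sites. Sites found in all 3 libraries were shared at 9.43 and 6.05%. Centre to centre the NIPBL distance was 21.0 kb. Of the alternatives chosen after seeing the data, leaving out 51 bp peaks gave 10.4% of NIPBL peaks with Rad21, 16.6 and 25.3 kb and -8.84 points, and leaving out places of a fold over 50 gave 8.16%. Leaving out 1 library at a time, 10.3 to 12.8% of NIPBL and 6.85 to 8.79% of Rad21 sites were shared. Sites of the protein that lost a library then had to recur in both remaining ones, a stricter rule that also changes these shares. In the same alternatives, 8.15 to 9.06% of NIPBL peaks had Rad21 at 19.7 to 20.8 kb. The stimulated minus resting share was -5.88 to -4.97 points and the width difference -25.4 to 143.3 bp. Rad21-higher bins numbered 6241 to 11264, and bins with a smaller difference after stimulation 547 to 1441.

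The single bins below changed direction with the choice of peaks. With 10000 peaks they were 12:114460001 (-5.55), 1:87500001 (7.48), and for the interaction 10:96080001 (-2.22), 11:3070001 (81.1) and 11:87560001 (-1.86). With 40000 they were 12:114340001 (1.73), 12:114380001 (3.44), 12:114420001 (7.83), 12:114650001 (-5.35), 8:19970001 (-10.4), and for the interaction 11:3070001 (11.1) and 12:114400001 (3.86). With all peaks they were 12:114340001 (20.3), 12:114380001 (37.5), 12:114420001 (38.9), 12:114490001 (9.82), 12:114550001 (-1.27), 12:114650001 (-22.2), 8:123200001 (8.19) and 8:19970001 (-1.39), and for the interaction 11:3070001 (6.96), 12:114400001 (17.8), 15:101080001 (22.3), 1:90150001 (-17.4), 2:30540001 (6.63), 7:52090001 (-0.0733) and X:70960001 (1.82). At 5 Mb they were 12:114460001 (-13.0), and for the interaction 10:96080001 (-1.33), 11:3070001 (66.7) and 11:87560001 (-11.0), and with the q limit 12:114340001 (1.73), 12:114380001 (18.5) and 12:114420001 (13.3).

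Deviations of same-numbered NIPBL and Rad21 libraries correlated at -0.0633, -0.00585 and 0.00741 across bins, so bin values showed no pairing by replicate number. Such correlations cannot tell whether same-numbered libraries share animals or cultures. With the replicate block 7403 and 9325 bins were called, against 7524 and 9654. Bins of 5 or 20 kb, a cover in 1 or 3 libraries, no trend, 1 fit of 12 libraries and leaving out bins covered over 90% kept both counts within 1.5 times.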
